A study of Mus musculus with 10 samples.

Results

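Corneodesmosin (Cdsn) was 4.55-fold lower in Ring1a/b 2KO than in Ring1 control mouse epidermis. The difference was called in the authors' deposited table but not by limma without a term for the replicate number. None of 9 desmosome genes beside Cdsn was called in either Polycomb knockout with all libraries used. The genes described are 10 desmosome genes, taken by symbol: the cadherins Dsg2, Dsg3, Dsc1, Dsc2 and Dsc3, the plaque genes Dsp, Pkp1, Pkp3 and Jup, and Cdsn. All 10 were found among the 18502 genes of the Eed table and among the 18344 genes of the Ring1 table, which hold 19090 identifiers together. All 10 also passed the filter, which kept genes averaging 5 or more normalised counts, in each of the tables.

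Desmosomes are the rivet-like junctions that tie neighbouring keratinocytes together and anchor their keratin filaments. Desmogleins and desmocollins, the desmosomal cadherins, bind each other between cells, and plakoglobin (Jup) and plakophilins link their tails to desmoplakin (Dsp), which holds the keratins. The cadherins change as keratinocytes leave the basal layer: Dsg3 and Dsc3 are typical of the lower layers, Dsc1 of the upper ones, and Dsg2 and Dsc2 are the widely expressed pair of simple epithelia. Corneodesmosin is a secreted adhesive protein added to desmosomes in the granular layer, where they become the corneodesmosomes that hold the cornified layer together until proteases cut them.

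The study profiled RNA of sorted back skin epidermis from adult mice lacking a Polycomb complex, one of the chromatin-modifying complexes that keep developmental genes silent. There were 10 libraries in 4 groups: 3 of Eed knockout (genotype Eed -/-), 3 of Eed control, 2 of Ring1a/b 2KO (genotype Ring1a-/- Ring1b-/-) and 2 of Ring1 control. Eed is a core subunit of Polycomb repressive complex 2, while Ring1a (gene Ring1) and Ring1b (gene Rnf2) are the catalytic subunits of Polycomb repressive complex 1. Recombination was induced on shaved back skin with 100 µl of 4OH-tamoxifen at 20 mg/ml a day for 4 days from postnatal day 50, and skin was taken at postnatal day 71. The protocol is the same in the labels of all 4 groups, controls included. The cells were interfollicular epidermis sorted as EpCAM positive, Sca1 positive and α6-integrin high, a gate for basal keratinocytes. The labels name no Cre driver, deleted exons or control alleles, and do not say if the libraries came from separate mice, so p-values measure the spread between these libraries only.

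The Eed table holds 31699979 to 40701183 reads in knockout libraries and 32667439 to 39006853 in control libraries. The Ring1 table is shallower, with 19814853 and 6237389 reads in Ring1a/b 2KO libraries 1 and 2 and 25158144 and 7162907 in Ring1 control libraries 1 and 2. Mitochondrial genes took 8.16 and 12.7% of reads in Ring1a/b 2KO, the second library being the higher, and 6.51 to 7.28% in Ring1 control. In the Eed table they took 2.85 to 3.58% in knockout and 2.34 to 2.81% in control. Eed itself had 1412, 1143 and 1340 normalised counts in Eed knockout and 1845, 1319 and 1706 in Eed control. Ring1 had 104 and 115 in Ring1a/b 2KO and 66.2 and 211 in Ring1 control, and Rnf2 had 720 and 529 in Ring1a/b 2KO and 675 and 670 in Ring1 control. In none of the 3 comparisons did a targeted gene separate its knockout from control libraries without overlap, and counts over a whole gene cannot check a deletion of unknown exons, so the genotypes rest on the labels. The labels do not say whether the Ring1 controls also carry a Ring1a deletion, so a comparison of the loss of both genes and one of the loss of Ring1b alone cannot be told apart from these values. The gate's own genes were all present: Epcam averaged 4507 ± 1215 normalised counts in Eed knockout and 4482 ± 1063 in Eed control (SD, n = 3 each).

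None of the 10 genes passed the limma test in either knockout when all libraries were used with no term for the replicate number. limma called 0 of the 10 in Eed knockout at an adjusted p under 0.05, where it called 0% of all genes tested, and 0 of 10 at an unadjusted p under 0.05, against 4.73% of all genes. It also called 0 of 10 in Ring1a/b 2KO, against 0.0392% of all genes. Dsg2 and Cdsn passed an unadjusted p under 0.05 there, 2 of 10 against 10.4% of all genes. edgeR called 0 of 10 in both comparisons and 0% of all genes in both. In the authors' deposited table Cdsn was the only one of the 10 with an adjusted p under 0.05, in Ring1a/b 2KO and lower. Calls made up 1.49% of all genes in that deposited table, 0.31% being lower, and 0.761% of all genes in the authors' deposited table for Eed, which called none of the 10.

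The direction of the small differences was mostly downward in both knockouts. The median log2 fold change of the 10 genes was -0.19 in Eed knockout, with 9 of 10 below 0, beside a median of 0.01 over all genes, of which 48.8% were below 0. The median was -0.26 in Ring1a/b 2KO, with 8 of 10 below 0, beside a median near 0 over all genes, of which 50.03% were below 0. Between libraries of a group, the median deviation of the 10 genes had an SD of 0.15 in the Eed table and 0.19 in the Ring1 table. The genes share libraries and most varied together, so these are not counts of independent genes. Under quantile normalization the log2 fold change was 0 for Dsp and 0.081 for Pkp3 in Eed knockout, and 0.077 for Dsg3 in Ring1a/b 2KO. In Eed knockout the libraries overlapped those of Eed control for all 10 genes; over all genes 4.15% lay wholly below and 5.06% wholly above their controls. In Ring1a/b 2KO, 4 of 10 genes lay wholly below Ring1 control (Dsg2, Dsp, Pkp3 and Cdsn), against 21.5% of all genes, and Dsc2 lay wholly above, against 21.4%.

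**Figure D1:**
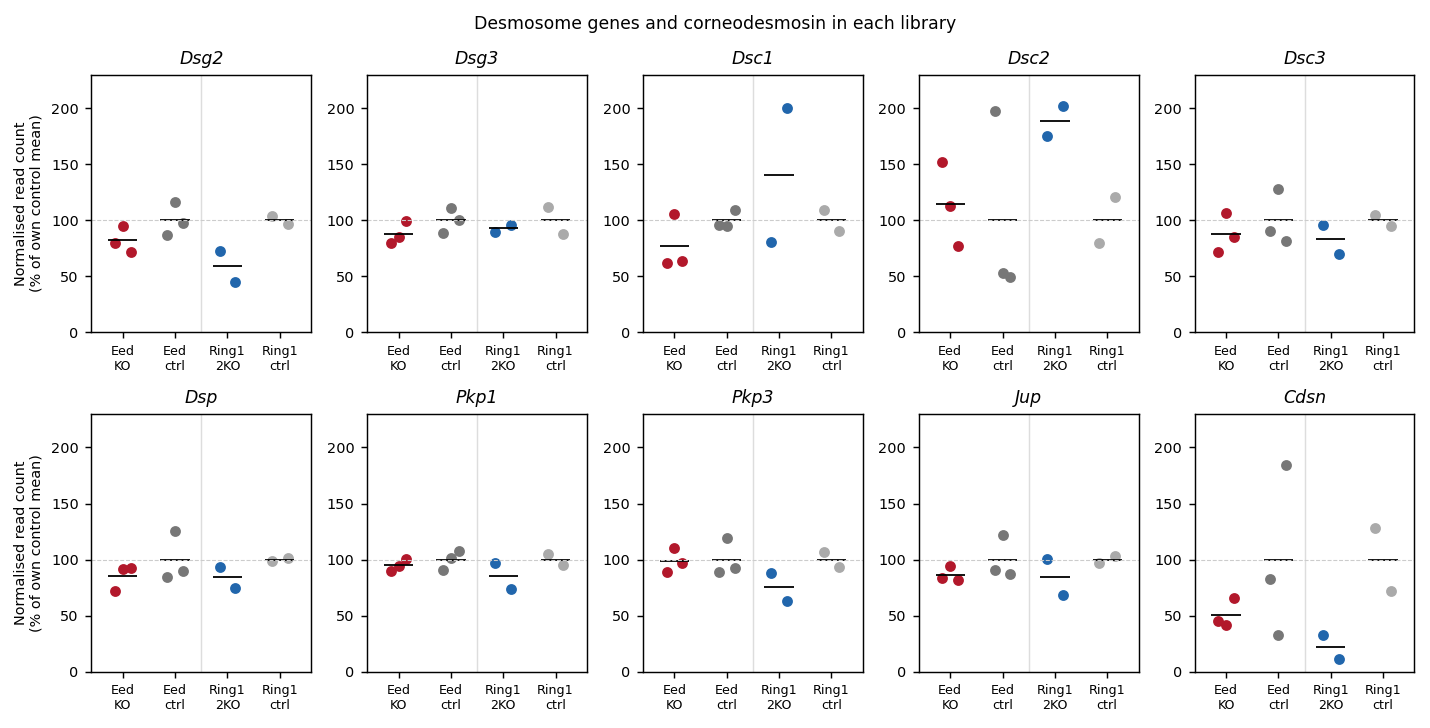
Each panel shows 1 gene, with normalised read counts as percent of the mean of the gene's own control group on the y axis, points for libraries and bars for group means (Eed knockout, Eed control, Ring1a/b 2KO, Ring1 control from left to right). Cdsn in Ring1a/b 2KO lies at 32.5 and 11.4% of Ring1 control, and Dsg2 at 72.9 and 45.1%. The second Ring1a/b 2KO library is low for most genes, with a median of 71.96%. Controls scatter too: in Eed control Cdsn spans 33.0 to 184% and Dsc2 49.4 to 197%.

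**Figure D2:**
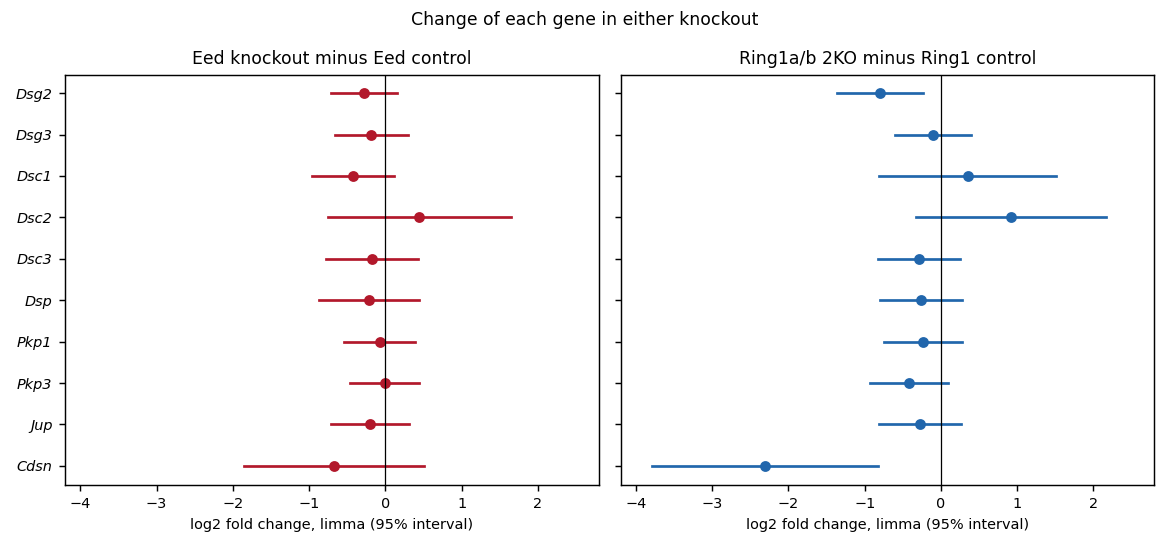
The x axis is the limma log2 fold change of each gene, knockout minus control, with its 95% interval; Eed knockout is in the left panel and Ring1a/b 2KO in the right. Only the intervals of Dsg2 and Cdsn in Ring1a/b 2KO lie wholly below 0, and neither passed the adjusted threshold.

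Desmoplakin was the most abundant of the 10 per length in every group. Levels per length are normalised counts per kilobase of the gene's longest coding transcript, comparable between genes only within a table. Dsp had 21090 ± 2824 per kilobase in Eed knockout and 24691 ± 5470 in Eed control (SD, n = 3 each), and its lowest library was above the highest of any other gene of the 10 in either group. In the Eed table it was followed by Jup, Dsc3 and Pkp1, then Dsg3 and Pkp3, then Dsg2. Neighbours in that order whose libraries overlapped, in both Eed groups, were Jup and Dsc3, Dsc3 and Pkp1, and Dsg3 and Pkp3.

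The low end held the genes of upper layers and of simple epithelia. Cdsn had 204 ± 51.3 per kilobase in Eed knockout and 401 ± 308 in Eed control. Dsc1 had 249 ± 80.4 in Eed knockout and 325 ± 25.2 in Eed control, with libraries overlapping those of Cdsn in both groups, and Dsc2 had 55.5 ± 18.3 in Eed knockout and 48.6 ± 41.0 in Eed control (SD, n = 3 each). These had the 3 lowest means of the 10 in all 4 groups, though in Ring1a/b 2KO the libraries of Dsc1 overlapped those of Dsg2.

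In the Ring1 table the order of means below Dsp was Dsc3, Pkp1, Jup, Dsg3, Pkp3 and Dsg2 in both groups. In Ring1a/b 2KO the libraries overlapped between Dsc3 and Pkp1, Pkp1 and Jup, and Jup and Dsg3. Dsp had 6566 ± 1025 per kilobase in Ring1a/b 2KO and 7791 ± 183 in Ring1 control (SD, n = 2 each). Cdsn ranked below Dsc1 in Ring1a/b 2KO, at 54.1 ± 36.7 for Cdsn and 292 ± 176 per kilobase for Dsc1 with no overlap, and above Dsc1 in Ring1 control, at 246 ± 97.2 for Cdsn and 208 ± 28.1 for Dsc1 with overlap (SD, n = 2 each). Dsc2 was last in both groups, at 11.2 ± 1.13 per kilobase in Ring1a/b 2KO and 5.95 ± 1.73 in Ring1 control.

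**Figure D3:**
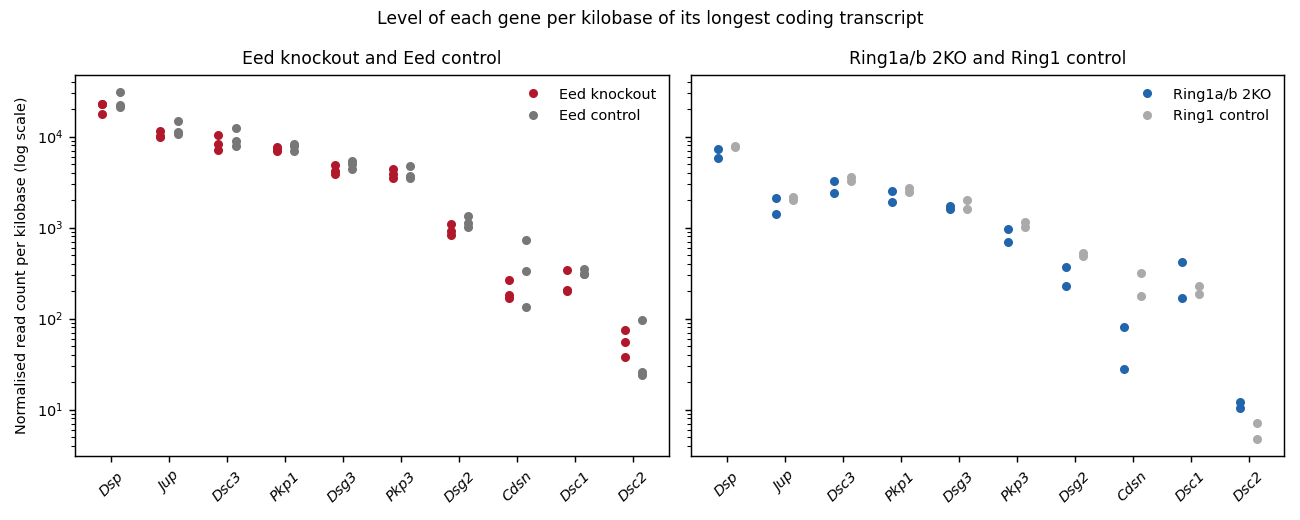
The y axis, on a log scale, is the normalised read count per kilobase of each gene's longest coding transcript; points are libraries, with knockout left of control for each gene, Eed on the left and Ring1 on the right. Dsp is the highest in every library and Dsc2 the lowest, and Cdsn is the gene with the widest gap between Ring1a/b 2KO and Ring1 control.

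The promoters of the most abundant gene, Dsp, of the other plaque gene found in the RefSeq promoter table, Jup, and of Cdsn are shown: Dsp has the highest level of the 10, Cdsn the largest change, and Jup is set beside them for comparison. RefSeq sequences on GRCm38.p6 run from 250 bases before to 50 bases after the start of the gene, and 3 of the 10 genes were matched. They lie at chr13:38151044-38151343 on the plus strand for Dsp, chr11:100397741-100398040 on the minus strand for Jup, and chr17:35551878-35552177 on the plus strand for Cdsn, the last at the same start as the GENCODE M21 gene. Capitals mark the GC box, GGGCGG on either strand, the kind of element bound by Sp factors.
Dsp: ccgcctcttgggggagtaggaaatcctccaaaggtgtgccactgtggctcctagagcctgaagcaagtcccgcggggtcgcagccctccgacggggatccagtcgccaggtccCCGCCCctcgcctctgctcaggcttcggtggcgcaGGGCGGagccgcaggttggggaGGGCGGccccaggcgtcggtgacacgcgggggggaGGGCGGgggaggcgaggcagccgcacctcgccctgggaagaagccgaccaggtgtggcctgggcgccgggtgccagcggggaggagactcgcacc
Jup: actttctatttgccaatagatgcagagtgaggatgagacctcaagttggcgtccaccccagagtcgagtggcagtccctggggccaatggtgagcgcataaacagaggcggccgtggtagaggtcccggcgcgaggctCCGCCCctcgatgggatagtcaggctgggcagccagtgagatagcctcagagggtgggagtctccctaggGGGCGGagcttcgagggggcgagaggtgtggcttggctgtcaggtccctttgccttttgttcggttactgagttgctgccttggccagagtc
Cdsn: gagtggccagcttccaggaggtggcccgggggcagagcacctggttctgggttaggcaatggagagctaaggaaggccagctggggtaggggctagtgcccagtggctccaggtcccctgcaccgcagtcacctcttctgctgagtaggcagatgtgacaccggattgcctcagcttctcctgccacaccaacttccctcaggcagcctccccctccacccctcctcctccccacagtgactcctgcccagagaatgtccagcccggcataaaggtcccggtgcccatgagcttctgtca
The Dsp window held 4 GC boxes and 27 CG dinucleotides at 73.0% G and C, as many or more CG than 85.8% of 32851 promoters of the same length, whose median was 7. Jup held 2 GC boxes and 14 CG, and the Cdsn window none and 5 CG. A GC box was found in 35.7% of all promoters. Neither TGANTCA, the AP-1 motif (7.81% of promoters), nor AACCNGTT, the grainyhead-like motif (2.09%), was found on either strand of the 3 windows. RefSeq lists a further Cdsn start upstream, at chr17:35542851-35543150, with 8 CG and none of these motifs. The matches are descriptions of letters and not of binding.

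The 5 cadherin genes lie together in the desmosomal cadherin cluster of chromosome 18 (GRCm38, GENCODE M21), the desmocollins on the minus strand and the desmogleins on the plus strand. Dsc3 spans 19960930 to 20002351, Dsc2 20030633 to 20059554, Dsc1 20084184 to 20114871, Dsg3 20510274 to 20547459 and Dsg2 20558074 to 20604521. Of the 5, 4 were below 0 in Eed knockout, with a median log2 fold change of -0.19, and 3 in Ring1a/b 2KO, with a median of -0.10.

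Dsg3, the basal desmoglein and the antigen of pemphigus vulgaris, differed little. It had 24350, 25859 and 30264 normalised counts in Eed knockout and 27104, 33702 and 30652 in Eed control. It had 10012 and 10729 in Ring1a/b 2KO and, in Ring1 control, 12514 and 9869. The libraries overlapped in both comparisons. The log2 fold change was -0.19 (SE 0.21, 95% interval -0.66 to 0.29) in Eed knockout and -0.10 (SE 0.22, -0.60 to 0.40) in Ring1a/b 2KO, by limma.

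Dsc3, the basal desmocollin and the most abundant cadherin per length, also overlapped its controls. It had 37685, 55627 and 44596 normalised counts in Eed knockout and 47336, 66945 and 42496 in Eed control. It had 17499 and 12730 in Ring1a/b 2KO and 19114 and 17362 in Ring1 control. The second library of Ring1a/b 2KO was the lowest of its table, and the first overlapped the controls. The limma log2 fold change was -0.18 (SE 0.27, 95% interval -0.78 to 0.43) in Eed knockout and -0.29 (SE 0.24, -0.82 to 0.25) in Ring1a/b 2KO.

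Dsg2, the widely expressed desmoglein, was the cadherin with the clearest gap in Ring1a/b 2KO. It had 2137 and 1321 normalised counts in Ring1a/b 2KO and 3037 and 2823 in Ring1 control, so both knockout libraries lay below both controls. The ratio of means was 0.59, and the limma log2 fold change was -0.80 (SE 0.25, 95% interval -1.37 to -0.23). The adjusted p was 0.356 by limma, 0.474 by edgeR and 0.287 in the authors' deposited table, so no test called it. The limma value was -0.45 without the second Ring1a/b 2KO library and -1.15 without the first, each with a single knockout library left.

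In Eed knockout Dsg2 had 5349, 6381 and 4775 normalised counts, against 5791, 7794 and 6513 in Eed control. The knockout libraries 1 and 3 were below every control and library 2 was among them. Its limma log2 fold change there was -0.28 (SE 0.19, 95% interval -0.72 to 0.15), with an adjusted p of 0.989. Per 100 of Dsg3 per kilobase, Dsg2 stood at 23.0 and 13.3 in Ring1a/b 2KO and at 26.1 and 30.8 in Ring1 control, and at 17.0 to 26.6 in Eed knockout and 22.9 to 24.9 in Eed control.

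Dsc1, the desmocollin of the upper living layers, was the cadherin whose 2 Ring1a/b 2KO libraries differed most from each other. They held 685 and 1702 normalised counts, against 930 and 768 in Ring1 control. The first lay below and the second above both controls. By limma Dsc1 differed by 0.35 on the log2 scale (SE 0.45, 95% interval -0.81 to 1.51). In Eed knockout Dsc1 had 818, 1397 and 839, against 1274, 1259 and 1444 in Eed control, and the knockout libraries 1 and 3 lay below every control. By limma this was a log2 fold change of -0.42 (SE 0.24, 95% interval -0.96 to 0.12), with an adjusted p of 0.989.

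Dsc2, the widely expressed desmocollin, was the rarest of the 10 and the only one above 0 in both comparisons. It had 343, 254 and 174 normalised counts in Eed knockout and 444, 120 and 111 in Eed control. The first control was the highest library and the other controls the lowest, so the groups overlapped. The Ring1a/b 2KO libraries had 48.2 and 55.6, from 78 and 31 reads, and the Ring1 control libraries had 21.9 and 33.2, from 42 and 20 reads. Both Ring1a/b 2KO libraries lay above both controls on these few reads. For Dsc2 the limma log2 fold change was 0.45 (SE 0.53, 95% interval -0.76 to 1.65) in Eed knockout and 0.91 (SE 0.55, -0.33 to 2.16) in Ring1a/b 2KO. The value in Eed knockout rested on single libraries, at 1.09 without the first Eed control library and 0.099 without the third.

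Dsc3 and Dsg3 together made up most of the cadherin level in every library. Dsc3 held 50.02 to 64.8% of the per-kilobase level of the 5 genes over the 10 libraries and Dsg3 25.9 to 36.2%. Dsc1 held 3.08 and 8.73% in Ring1a/b 2KO and 3.58 and 3.40% in Ring1 control, so its share stood out in the second Ring1a/b 2KO library. Its share was 1.44 to 2.12% in Eed knockout and 1.57 to 2.45% in Eed control.

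**Figure D4:**
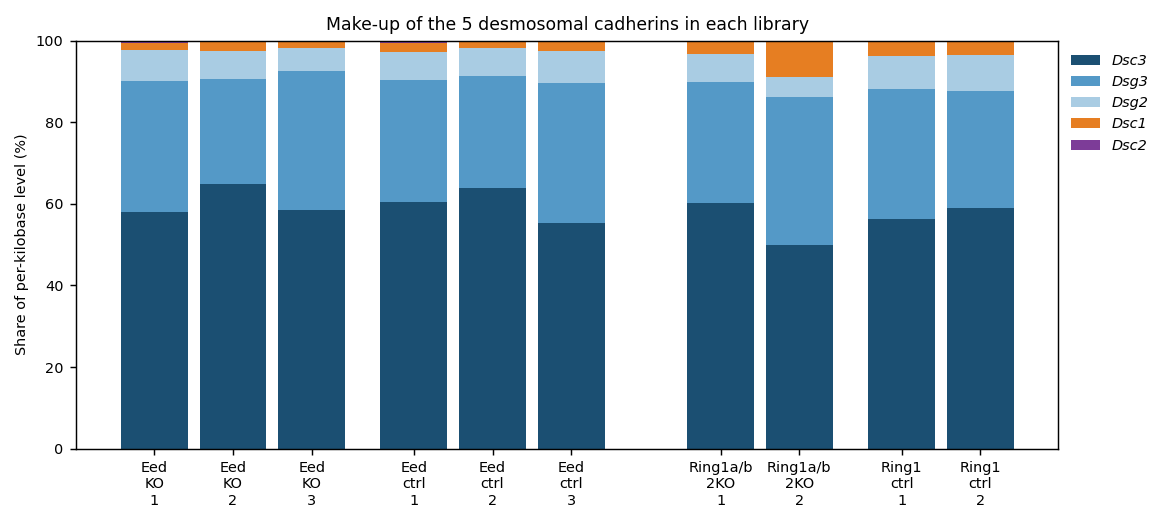
Each bar is 1 library and shows the share, in percent, that each of the 5 cadherin genes takes of their summed normalised count per kilobase; knockout bars stand left of their controls. Dsc3 is the largest share in every library, from 50.02 to 64.8%, and Dsc1 reaches 8.73% in the second Ring1a/b 2KO library.

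The plaque genes all averaged below their controls in both comparisons, apart from Dsp and Pkp3 in Eed knockout under quantile normalization. The 4 of them had limma log2 fold changes from -0.21 to -0.01 in Eed knockout, with a median of -0.14, and from -0.42 to -0.24 in Ring1a/b 2KO, with a median of -0.26, none of them called. Dsp (chromosome 13, 38151294 to 38198577), the keratin anchor, had 171016, 217500 and 218368 normalised counts in Eed knockout and 200868, 297040 and 212610 in Eed control. Those groups overlapped, with the second control the highest. Dsp had 69931 and 56024 in Ring1a/b 2KO and 73488 and 75968 in Ring1 control, both knockout libraries being the lower. The limma log2 fold change was -0.21 (SE 0.29, 95% interval -0.87 to 0.44) in Eed knockout and -0.26 (SE 0.24, -0.79 to 0.28) in Ring1a/b 2KO.

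Jup (chromosome 11, 100368958 to 100397763) encodes plakoglobin, which also serves adherens junctions. It had 32715, 36964 and 32010 normalised counts in Eed knockout and 35745, 47796 and 34165 in Eed control. It had 6711 and 4556 in Ring1a/b 2KO and 6480 and 6900 in Ring1 control. The second Ring1a/b 2KO library was the lowest, while the first lay between the controls. For Jup the limma log2 fold change was -0.20 (SE 0.23, 95% interval -0.71 to 0.31) in Eed knockout and -0.27 (SE 0.24, -0.81 to 0.26) in Ring1a/b 2KO. Per 100 of Dsp per kilobase, Jup stood at 43.9 to 57.3 in Eed knockout and 48.1 to 53.3 in Eed control, and at 28.7 and 24.3 in Ring1a/b 2KO and 26.4 and 27.2 in Ring1 control.

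Pkp1 (chromosome 1, 135871395 to 135919207), a plakophilin that stabilises the desmosomes of stratified epithelia, also overlapped in both comparisons. It had 32246, 33919 and 36158 normalised counts in Eed knockout and 32522, 36483 and 38846 in Eed control. It had 11739 and 8979 in Ring1a/b 2KO and 12710 and 11523 in Ring1 control, with the second knockout library the lowest and the first among the controls. For Pkp1 the limma log2 fold change was -0.07 (SE 0.21, 95% interval -0.54 to 0.39) in Eed knockout and -0.24 (SE 0.23, -0.75 to 0.27) in Ring1a/b 2KO.

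Pkp3 (chromosome 7, 141078218 to 141090510), a plakophilin found through most epidermal layers, had 10233, 12772 and 11239 normalised counts in Eed knockout and 10234, 13717 and 10683 in Eed control. The groups overlapped almost wholly. It had 2781 and 2012 in Ring1a/b 2KO and 3379 and 2963 in Ring1 control, both knockout libraries being the lower. The limma log2 fold change was -0.01 (SE 0.20, 95% interval -0.46 to 0.44) in Eed knockout and -0.42 (SE 0.23, -0.93 to 0.09) in Ring1a/b 2KO, with an adjusted p of 0.562 in Ring1a/b 2KO.

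Cdsn (chromosome 17, 35552128 to 35557180 on the plus strand) showed the largest difference of the 10 genes in Ring1a/b 2KO. It had 214 and 75.3 normalised counts in Ring1a/b 2KO, from 347 and 42 reads, and 843 and 475 in Ring1 control, from 1619 and 286 reads. Both knockout libraries lay well below both controls, and the second was the lower. The means were 145 ± 98.4 in Ring1a/b 2KO and 659 ± 260 in Ring1 control (SD, n = 2 each). The limma log2 fold change was -2.31 (SE 0.58, 95% interval -3.79 to -0.82), with an adjusted p of 0.349, and edgeR gave an adjusted p of 0.295.

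Cdsn fell in the authors' deposited table, with a log2 fold change of -2.17 and an adjusted p of 0.00334. That call depended on 1 control library. Run again with DESeq2 on the recovered reads, it was lost without the first Ring1 control library, at a log2 fold change of -1.69 and an adjusted p of 0.750. It was kept without any other single library, with adjusted p from 9.85e-08 to 0.030. In limma Cdsn lay below 0 in every run that left out 1 library, from -3.05 to -1.56. Each of these runs, by DESeq2 or limma, had a group with a single library left, so their p-values carry little weight.

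In Eed knockout Cdsn had 488, 447 and 703 normalised counts, against 890, 354 and 1975 in Eed control. The control libraries spread widely, with the third the highest and the second below every knockout library. Its limma log2 fold change in Eed knockout was -0.67 (SE 0.52, 95% interval -1.85 to 0.51), with an adjusted p of 0.989, and the authors' deposited table gave -0.97 with an adjusted p of 0.834. The limma value was -1.31 without the second Eed control library and -0.069 without the third. The DESeq2 value was -1.39 without the second Eed control library, with an adjusted p of 0.0457, and -0.19 without the third, with an adjusted p of 1.00.

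The difference between the 2 knockout effects was tested directly and was not called for any of the 10 genes. Over all genes limma called 0 of 15096 differences, or 0%, at an adjusted p under 0.05, and 285 at an unadjusted p under 0.05. The difference, Eed effect minus Ring1a/b effect on the log2 scale, was 1.63 for Cdsn (SE 0.93, 95% interval -0.45 to 3.72), -0.78 for Dsc1 (SE 0.49, -1.84 to 0.29) and 0.52 for Dsg2 (SE 0.33, -0.21 to 1.24). The other 7 lay between -0.47 for Dsc2 and 0.41 for Pkp3. With each library left out the difference ranged from 0.88 to 2.38 for Cdsn, from -1.43 to -0.12 for Dsc1 and from 0.17 to 0.86 for Dsg2. For each of these genes the value nearest 0 came without the second Ring1a/b 2KO library and the one furthest from 0 without the first. These intervals do not show that the knockouts act alike.

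Single libraries stood apart over many of the 10 genes at once. The second Ring1a/b 2KO library held the lowest value of its table for 7 of them and the highest for 2, Dsc1 and Dsc2. Its median was 71.96% of the mean of Ring1 control, against 91.5% in the first Ring1a/b 2KO library. It also had the fewest reads of the series and the highest mitochondrial share, and the part of these in the result was not tested. In the Eed table the first knockout library was the lowest for 6 genes and the second control the highest for 6. The medians of the knockout libraries were 79.9, 94.8 and 83.5% of the mean of Eed control. The 10 genes took 0.83 to 1.18% of all reads in Eed knockout and 1.07 to 1.28% in Eed control, and 0.99 and 0.88% in Ring1a/b 2KO and 1.01 and 1.08% in Ring1 control.

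Most of the 10 genes varied together over the 10 libraries once each was centred within its table. The Pearson correlation of a gene with the mean of the others was 0.87 for Dsg2, 0.85 for Pkp1, 0.75 for Pkp3, 0.67 for Dsp, 0.63 for Jup, 0.62 for Dsc3 and 0.51 for Dsg3. It was 0.36 for Cdsn and -0.30 for Dsc1, the genes of the upper layers. Dsc2 was left out because its mean was under 50 in the Ring1 table. Among 11274 other genes averaging 50 or more in each table, those that lay closest to the mean of the 9 were Antxr1 (r = 0.97), Pcgf5 (0.96), Elf2 (0.96), Mtmr12 (0.96) and Fem1c (0.95). These are descriptions over libraries of unequal depth, 6237389 to 40701183 reads, from tables normalized separately.

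Other desmosome genes also lay mostly below their controls, and none was called. Of 6 tested in Eed knockout, 5 were below 0, with a median log2 fold change of -0.38. Of 7 in Ring1a/b 2KO, 5 were below 0, with a median of -0.33. By limma 4 of the 7 passed an unadjusted p under 0.05, in both directions, against 10.4% of all genes. Dsg1a, a desmoglein of the differentiating layers, averaged 6989 ± 3357 normalised counts in Ring1a/b 2KO and 12418 ± 37.2 in Ring1 control (SD, n = 2 each). Its limma log2 fold change was -0.92 with an adjusted p of 0.416, and reads may be split among the near-identical Dsg1a, Dsg1b and Dsg1c. Perp, a tetraspan protein needed for desmosome assembly, averaged 30783 ± 11221 in Ring1a/b 2KO and 38262 ± 11519 in Ring1 control, with overlapping libraries. Pkp4 averaged 3782 ± 1245 in Ring1a/b 2KO and 5854 ± 415 in Ring1 control, with a limma adjusted p of 0.425. The remaining genes with an unadjusted p under 0.05, Pkp2 and Dsg4, lay above their controls and were chosen after their values were seen. Pkp2, the plakophilin of heart and simple epithelia, had 62.4 and 127 normalised counts in Ring1a/b 2KO and 23.4 and 26.6 in Ring1 control. Dsg4, the desmoglein of the hair cortex, had 11.7 and 14.3 in Ring1a/b 2KO and 0 and 3.32 in Ring1 control.

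The plakins and other plaque linkers showed the same tilt. All 6 were below 0 in Eed knockout, with a median log2 fold change of -0.24, and 5 of 6 in Ring1a/b 2KO, with a median of -0.48. Ppl (periplakin), which joins desmosomes to the cornified envelope, averaged 7341 ± 1038 normalised counts in Ring1a/b 2KO and 11056 ± 825 in Ring1 control (SD, n = 2 each). Its limma adjusted p was 0.412. Plec and Dst, which anchor keratin at hemidesmosomes, also lay wholly below Ring1 control, as did 21.5% of all genes, and neither was called.

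The proteases and inhibitors that control the cutting of corneodesmosomes were not called either. Of 13 tested, 4 were below 0 in Eed knockout, with a median log2 fold change of 0.11, and 7 in Ring1a/b 2KO, with a median of -0.09. Spink5, which encodes the kallikrein inhibitor LEKTI, lay below its controls in every library of both knockouts. It had 1447, 3991 and 2958 normalised counts in Eed knockout and 5076, 4848 and 6151 in Eed control, and 1392 and 561 in Ring1a/b 2KO and 2372 and 2082 in Ring1 control. Its limma log2 fold change was -1.05 (SE 0.33) in Eed knockout and -1.33 (SE 0.45) in Ring1a/b 2KO. The limma adjusted p was 0.868 in Eed knockout and 0.433 in Ring1a/b 2KO. Over all genes, 4.15% lay wholly below their controls in Eed knockout and 21.5% in Ring1a/b 2KO.

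The other junction types gave the surrounding picture. Adherens junction genes had a median log2 fold change of -0.17 in Eed knockout, with 10 of 11 below 0, and of -0.13 in Ring1a/b 2KO, with 9 of 11. Tight junction genes had a median of -0.46 in Eed knockout, with 12 of 14 below 0, and of -0.61 in Ring1a/b 2KO, with 11 of 13. Gap junction genes went the other way, with a median of 0.22 in Eed knockout, where 2 of 6 were below 0. In Ring1a/b 2KO their median was 0.16, with 1 of 6 below 0. Cldn23, a claudin, averaged 5.19 ± 2.27 normalised counts in Ring1a/b 2KO and 55.0 ± 12.0 in Ring1 control, and was lower with an adjusted p of 0.0152 in the authors' deposited table. Gjb2, the gap junction protein connexin 26, averaged 645 ± 633 in Eed knockout and 87.5 ± 35.0 in Eed control, and was higher with an adjusted p of 0.000797 in the authors' deposited table.

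Markers of the spinous and granular layers moved beside Cdsn, in both directions. Of 13, 8 were below 0 in Ring1a/b 2KO, with a median log2 fold change of -0.49, and limma called none. The authors' deposited table called Lor and Krt1 in Ring1a/b 2KO. Lor, the loricrin of the granular layer, averaged 116 ± 60.8 normalised counts in Ring1a/b 2KO and 528 ± 321 in Ring1 control (SD, n = 2 each), with an adjusted p of 0.00592 in the authors' deposited table. Krt1, a keratin that starts in the spinous layer, had 24228 and 35925 in Ring1a/b 2KO and 13947 and 9866 in Ring1 control. It was higher with an adjusted p of 0.00247 in the authors' deposited table. Its partner Krt10 had 19962 and 14362 in Ring1a/b 2KO and 14251 and 15243 in Ring1 control, with overlap.

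The summed level of the 13 spinous and granular markers was 68052 to 68400 normalised counts in Ring1a/b 2KO and 44311 to 60000 in Ring1 control. In the Eed table the sum was 182223 to 350200 in knockout and 272731 to 497712 in control, with 11 of 13 below 0 and a median log2 fold change of -0.52. Krt2, a keratin of the upper spinous layer, averaged 983 ± 936 in Eed knockout and 113 ± 62.5 in Eed control and was called higher in the authors' deposited table. None of the 13 was at 0 in every library of a group. The part of the layer markers in the Cdsn result was not tested, and in bulk RNA fewer cells with Cdsn and less Cdsn per cell cannot be told apart. The α6-integrin high gate is one for basal cells, yet markers of the upper layers were present. In Eed control Krt10 averaged 171830 ± 66858 normalised counts, beside 396567 ± 60644 for the basal keratin Krt14 (SD, n = 3 each). How far the sort left out cells of the upper layers was not tested.

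**Figure D5:**
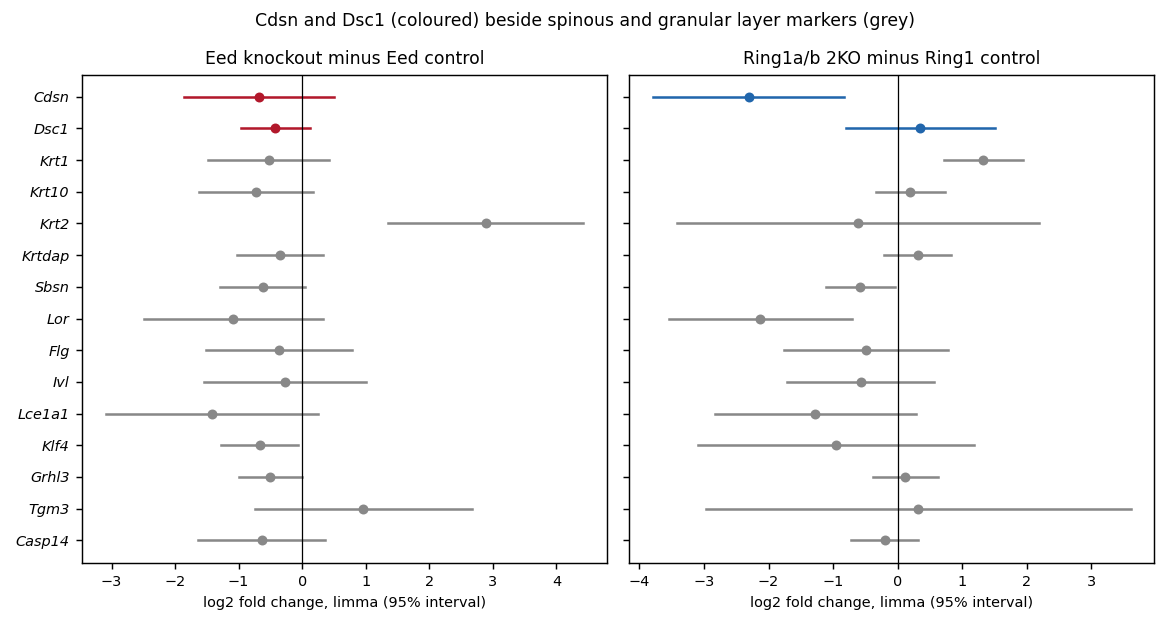
The x axis is the limma log2 fold change, knockout minus control, with its 95% interval, for Cdsn and Dsc1 (coloured) and 13 markers of the spinous and granular layers (grey), Eed knockout on the left and Ring1a/b 2KO on the right. In Ring1a/b 2KO Cdsn at -2.31 and Lor at -2.13 lie furthest left and Krt1 at 1.33 furthest right.

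Basal markers were below 0 in 7 of 8 cases in Ring1a/b 2KO, with a median log2 fold change of -0.49, and in 5 of 8 in Eed knockout, with a median of -0.21. Their summed level was 239944 to 286610 normalised counts in Ring1a/b 2KO and 276024 to 349105 in Ring1 control. By limma 4 of the 8 passed an unadjusted p under 0.05 in Ring1a/b 2KO, against 10.4% of all genes, and none was called. Among the basal keratins, Krt5 averaged 114597 ± 9513 in Ring1a/b 2KO and 123713 ± 13900 in Ring1 control, with overlap. Krt14 averaged 81325 ± 5347 in Ring1a/b 2KO and 75199 ± 24973 in Ring1 control, also with overlap. Krt15 averaged 14769 ± 4680 in Ring1a/b 2KO and 29289 ± 8587 in Ring1 control, with no overlap. Its limma log2 fold change was -0.99, with an adjusted p of 0.349. Itga6, the α6-integrin of the gate, averaged 9541 ± 279 in Ring1a/b 2KO and 15381 ± 2714 in Ring1 control, with no overlap and a limma adjusted p of 0.372. Like Krt15 and Itga6, 21.5% of all genes lay wholly below Ring1 control.

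Markers of other cell types were partly higher in the knockouts, and some of the lists were not low. Sebaceous gland markers summed to 13061 to 15281 normalised counts in Eed knockout and 15036 to 19329 in Eed control. Scd1 and Fasn held most of that sum, averaging 8335 and 5031 in Eed knockout and 10145 and 5981 in Eed control. T cell markers summed to 4597 to 6339 in Eed knockout and 4097 to 6084 in Eed control. Thy1 made up most of this, at 5423 ± 863 in Eed knockout and 4599 ± 1152 in Eed control. Cd3d averaged only 71.6 in Eed knockout and 96.6 in Eed control, and Cd3e 30.2 in Eed knockout and 50.3 in Eed control. Hair follicle markers summed to 4446 to 8284 normalised counts in Eed knockout and 3266 to 5039 in Eed control. In the Ring1 table they summed to 2037 to 2691 in Ring1a/b 2KO and 1221 to 1468 in Ring1 control. Sox9 held most of these sums, averaging 4429 ± 1429 in Eed knockout and 2805 ± 945 in Eed control. It averaged 1430 ± 709 in Ring1a/b 2KO and 981 ± 88.3 in Ring1 control, with overlap in both tables. Merkel cell markers summed to 55.2 to 282 in Eed knockout and 11.2 to 15.2 in Eed control, and to 138 to 172 in Ring1a/b 2KO and 8.33 to 18.3 in Ring1 control. The hair follicle and Merkel cell sums lay wholly above their controls in Ring1a/b 2KO, and the Merkel cell sum did in Eed knockout too. The summed fibroblast markers also lay wholly above their controls in both tables. They were at 353 to 959 in Eed knockout and 62.9 to 258 in Eed control, and 156 to 785 in Ring1a/b 2KO and 87.5 to 123 in Ring1 control. Among them Dcn (decorin) averaged 433 ± 383 in Eed knockout and 42.9 ± 28.6 in Eed control, and was higher with an adjusted p of 0.000238 in the authors' deposited table. The collagen gene Col1a1 averaged 51.2 ± 25.7 in Eed knockout and 41.1 ± 26.7 in Eed control, and Col1a2 29.2 ± 27.0 in Eed knockout and 26.8 ± 35.6 in Eed control, both with overlap. In Ring1a/b 2KO Dcn averaged 370 ± 454, against 46.0 ± 14.9 in Ring1 control, with overlap. Melanocyte markers summed to 556 to 964 in Eed knockout and 709 to 785 in Eed control, where Mlana and Sox10 were at 0. In Ring1a/b 2KO they summed to 342 to 630, wholly above the 240 to 311 in Ring1 control, where Tyrp1 was at 0. Beside Dcn, the authors' deposited table called Isl1 (Merkel list), Krt27 (hair follicle list) and Mlana (melanocyte list) higher in Eed knockout. Of these lists in Ring1a/b 2KO it called Isl1, Krt18, Cd34, Lhx2, Lgr5 and Tyrp1, all higher. None of these genes was called by limma in either knockout. The summed levels of Langerhans and myeloid, T cell, endothelial, sebaceous gland and muscle markers overlapped between knockout and control libraries in both tables. Single markers of these lists did lie apart without being called. Mgst1 of the sebaceous list lay wholly above its controls in both knockouts, and Fasn wholly below in Eed knockout. In Ring1a/b 2KO Cd3d, Cd3e and Tek lay wholly above and Cd74 and Thy1 wholly below. Over all genes, 21.4% lay wholly above and 21.5% wholly below their controls in Ring1a/b 2KO. In Eed knockout these shares were 5.06 and 4.15%. Ptprc, the leukocyte antigen CD45, chosen after its values were seen, averaged 85.6 ± 19.5 normalised counts in Eed knockout and 141 ± 28.6 in Eed control, and 65.6 ± 1.02 in Ring1a/b 2KO and 35.8 ± 5.73 in Ring1 control, with no overlap in either table. Their part in the values of the desmosome genes was not tested.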

How the data were processed

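RNA of 10 libraries was sequenced as 150 nucleotide paired-end reads from 10 ng of amplified total RNA, per the labels' protocols. The submitters' processing notes name kallisto 0.42.5, DESeq2 3.11 and the build mm10; strand marking is not given in the sources used here. The authors deposited 1 table per knockout, normalized separately, so levels are compared only within a table. Per-library values are the authors' deposited signal, gene counts divided by a size factor. The authors also deposited log2 fold changes, a test score (Wald statistic) and p-value columns. Within each library 100% of values were whole multiples of 1 step within 1e-06, so reads could be recovered; depth limits are counting error only.

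limma 3.58.1 (R 4.3.3, trend, robust) was fitted to log2(value + 1) of genes with a mean of at least 5, each knockout against its own controls, two-sided, with Benjamini-Hochberg adjustment over all genes and calls under 0.05. A fold change on this scale understates the change of low genes; ratios are of group means. The difference of effects was a contrast over all 10 libraries. Alternatives were other filters, pseudocounts, scalings and thresholds, DESeq2 1.42.0 and edgeR 4.0.16 (quasi-likelihood) on recovered reads, 1 joint fit, a replicate block and each library left out; DESeq2 without each library was added after the data were seen. The scripts were tested on simulated data. A group left with 1 library was taken to vary like the others.

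Named genes were the 10 members, the targeted genes, sort markers, and from each other list up to 3 genes of highest level in the Eed table plus any called; the likeness rule took the 5 closest genes. Spelled-out exceptions were chosen after their values were seen, among them those named for an unadjusted p. The members and lists were chosen with earlier results of these data known. Positions are GENCODE M21; promoters are RefSeq, GRCm38.p6.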

Additional observations from a re-analysis of the deposited data

How the results depend on the processing

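Of the results on the 10 genes, the direction changed under quantile normalization for Pkp3 in Eed knockout (0.081) and for Dsg3 in Ring1a/b 2KO (0.077). Dsp in Eed knockout was then at 0, neither above nor below its controls. The difference of effects turned for Jup under quantile normalization (-0.0021) and for Dsp under centring (-0.0039). The cause was not tested. With each library left out, the log2 fold change ranged in Eed knockout from -0.094 to 0.121 for Pkp3 and from -0.32 to 0.017 for Dsc3. In Ring1a/b 2KO it ranged from -0.30 to 1.01 for Dsc1, from -0.55 to 0.0053 for Jup and from -0.27 to 0.071 for Dsg3. The difference of effects ranged from -0.82 to 0.18 for Dsc2, -0.12 to 0.22 for Dsp, -0.12 to 0.34 for Dsc3, -0.20 to 0.36 for Jup, -0.26 to 0.087 for Dsg3 and -0.030 to 0.357 for Pkp1.

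The number of genes called in Eed knockout was 0 by limma, 127 both in the authors' deposited table and by DESeq2, 10 in 1 fit over all libraries, and 0 to 4 with each library left out. In Ring1a/b 2KO it was 6 by limma, 231 in the authors' deposited table and by DESeq2, 0 by edgeR and in 1 fit over all libraries, 10 without a filter, 4 with a mean of at least 50, and 0 to 565 with each library left out, the 565 without the first Ring1a/b 2KO library. DESeq2 with each library left out, added after the data were seen, called 30 to 189 genes in Eed knockout and 39 to 679 in Ring1a/b 2KO, with 0 to 1 and 0 to 2 of the 10 among them. Of the 10 in Ring1a/b 2KO, 1 was called in the authors' deposited table and by DESeq2, and 0 to 2 with each library left out. Their median log2 fold change ranged from -0.47 to -0.12 in Ring1a/b 2KO and from -0.27 to -0.05 in Eed knockout, and the number of differences called from 0 to 4.

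Replicate numbers are shared between groups, as are the letters A, B and C in the column names of the Eed libraries. Whether they pair the libraries was not settled. The correlation of deviations of same-numbered libraries was -0.11, 0.15 and 0.21 in the Eed table, against -0.23 to 0.11 for crossed pairs. In the Ring1 table the correlation was 0.14 for both same-numbered pairs and -0.14 for both crossed pairs. With 2 libraries a group these are 1 value apart from the sign, so they cannot settle the pairing. The libraries numbered 1 are the deeper ones in both Ring1 groups. With the replicate number as a block, the genes called were 1 in Eed knockout and 36 in Ring1a/b 2KO, and Cdsn was the 1 of the 10 genes called in Ring1a/b 2KO, with a limma adjusted p of 0.0215. Depth limits Dsc2 in the Ring1 table, with 20 to 78 reads a library, and Cdsn in the second Ring1a/b 2KO library, with 42 reads.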
